A study of Mus musculus with 20 samples.

Results

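The genes described here encode the collagens of the mouse colon and the proteins that modify, fold, cross-link and organise them. Members were the probe sets with 1 annotated gene symbol that reads Col, a number, a and a number, or that names a lysyl oxidase (Lox, Loxl1 to Loxl4), a lysyl hydroxylase (Plod1 to Plod3), a prolyl hydroxylase (P4ha1 to P4ha3), Serpinh1 or Postn. This gave 56 probe sets with values for 55 genes, of 29195 probe sets and 21423 singly named genes with values. All 55 genes passed the filter on dim probe sets and were among the 16739 genes tested. Loxl2 and Plod3 were named only together with other genes, so that no value is given for either. The members comprised 11 fibrillar collagens, 8 basement membrane collagens, 9 fibril-associated collagens, 6 type VI chains, 10 other collagens and 11 genes of cross-linking and assembly.

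Expression was measured on Affymetrix arrays, 1 per mouse, in the middle part of the colon of 20 mice (C57BL/6JOlaHsd females, aged about 11 weeks). Colitis was induced with 3% DSS (dextran sulphate sodium), which damages the lining epithelium of the colon, given in drinking water over 5 days. Untreated healthy mice (numbers 2, 4, 6 and 7) and untreated colitis mice (5, 6, 7 and 10) formed the saline groups. Probiotic healthy mice (4, 5, 6 and 7) and probiotic colitis mice (3, 5, 7 and 8) received the bacterial strains L930BB and IM386 by gavage, in colitis before and during DSS. Cyclosporine colitis mice (4, 7, 9 and 10) received 25 mg/kg of cyclosporine A, a drug that suppresses T cells, by mouth daily from day 1 to day 15. No healthy group received cyclosporine, and the sources used here give neither the sampling day nor the cage of each mouse. Values are log2 expression, listed below in the order of these mouse numbers.

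Fibrillar collagens, chiefly types I, III and V, form the tensile fibrils of the submucosa, the muscle layers and the mucosal stroma, and are made mainly by fibroblasts and smooth muscle cells. Basement membrane collagens, chiefly type IV with types XV and XVIII, form or attach to the sheets under the epithelium and around vessels, muscle fibres and nerves. Collagen chains are hydroxylated and folded in the endoplasmic reticulum, trimmed after secretion and joined by covalent cross-links that lysyl oxidases start.

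Precision is limited by the number of arrays, whose medians spanned 6.22 to 6.29. The correlation of array pairs lay between 0.965 and 0.994. Markers of the colonic epithelium averaged 10.7 to 11.0 per mouse over the 5 groups, so that markers of the labelled tissue were bright on every array. Changes below are log2 differences of group means ± the fitted standard error, with n = 4 mice in each group, and adjusted p-values come from limma with Benjamini-Hochberg adjustment over the 16739 genes, passing under 0.05. Tissue pieces were measured whole, so that fewer cells of a type and less RNA per cell cannot be told apart. Of the 12 members that rose in both comparisons of colitis with healthy mice, probiotic colitis mouse 8 had the lowest value of its group for 11, cyclosporine colitis mouse 4 for 10 and untreated colitis mouse 6 for 9.

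RefSeq sequences upstream of the transcription start were matched by symbol for 43 of the 57 genes the rule names, in 47 windows on GRCm38.p6. Shown are the 250 bases before the start of 2 fibrillar members and of 1 basement membrane member, chosen because their levels differed in several comparisons, and the stretch that the starts of Col4a1 and Col4a2 share. Capitals mark the CCAAT box (CCAAT, with its other strand ATTGG), the TATA box (TATAAA, whose other strand is TTTATA) and the GC box (GGGCGG, on the other strand CCGCCC), which were searched on both strands, and all sequences run 5′ to 3′ on the strand of the gene.
Col1a2, chr6:4505368-4505617, plus strand: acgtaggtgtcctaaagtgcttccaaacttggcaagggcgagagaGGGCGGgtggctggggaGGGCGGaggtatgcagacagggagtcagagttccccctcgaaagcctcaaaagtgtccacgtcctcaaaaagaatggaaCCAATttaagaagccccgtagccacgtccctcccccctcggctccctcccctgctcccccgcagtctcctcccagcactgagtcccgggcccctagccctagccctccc
Col3a1, chr1:45311288-45311537, plus strand: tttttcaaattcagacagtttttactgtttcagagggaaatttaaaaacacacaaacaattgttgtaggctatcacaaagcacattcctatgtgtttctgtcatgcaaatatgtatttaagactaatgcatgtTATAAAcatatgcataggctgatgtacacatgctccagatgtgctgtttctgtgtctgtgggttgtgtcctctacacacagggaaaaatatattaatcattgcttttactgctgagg
Col18a1, chr10:77113706-77113955, minus strand: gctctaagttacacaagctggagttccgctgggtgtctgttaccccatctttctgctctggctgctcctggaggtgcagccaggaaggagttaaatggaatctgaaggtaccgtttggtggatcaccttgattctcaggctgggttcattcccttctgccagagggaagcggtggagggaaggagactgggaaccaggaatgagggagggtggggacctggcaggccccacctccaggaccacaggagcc
Col18a1, a second start, chr10:77166531-77166780, minus strand: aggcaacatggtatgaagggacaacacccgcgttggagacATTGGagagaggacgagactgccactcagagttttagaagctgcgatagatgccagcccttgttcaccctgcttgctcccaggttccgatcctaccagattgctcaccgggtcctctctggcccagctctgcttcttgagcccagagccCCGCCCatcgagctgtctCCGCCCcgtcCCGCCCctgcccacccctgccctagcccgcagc
Col4a1 and Col4a2, chr8:11312805-11312826, plus strand: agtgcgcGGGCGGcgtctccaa
The Col1a2 window held 1 CCAAT box and 2 GC boxes, the Col3a1 window 1 TATA box, the first Col18a1 window none of the motifs and the second 1 CCAAT box and 3 GC boxes. Col4a1 and Col4a2 are transcribed in opposite directions, and their annotated starts overlap by 22 bases that hold 1 GC box. The GC box stood in 28 of the 47 member windows (59.6%), in 6 of 8 fibrillar and in 4 of 8 basement membrane windows, against 32.7% of the 32851 promoters of the table. The CCAAT box stood in 14 member windows (29.8%, against 33.9%) and the TATA box in 7 (14.9%, against 12.4%). These are matches of letters and not measured binding sites.

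Of the 55 members 13 rose and 1 fell in untreated colitis against untreated healthy mice, a comparison that asks what DSS injury does in this tissue. The shares were 23.6% and 1.82%, against 11.7% of all tested genes that rose and 14.4% that fell. In probiotic colitis against probiotic healthy mice 17 members rose (30.9%, against 13.6% of all genes) and 0 fell (against 16.1%). These comparisons share no array. The 12 members that rose in both were 92.3% of those that rose in untreated and 70.6% of those that rose in probiotic colitis. In cyclosporine colitis against untreated healthy mice 2 members rose (3.64%, against 2.64% of all genes) and 0 fell (against 3.38%), with 12 members at an unadjusted p under 0.05 by limma. That comparison shares its controls with the first, and its count was 0 or 1 without any 1 of its 8 arrays. Most members passed no test, and 35 of the 55 passed in none of the 8 comparisons. For 21 members every group mean lay under the median of the singly named probe sets (6.60), and of these Col6a5 alone passed anywhere.

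Among the colitis groups, which ask what each treatment does in colitis, 3 members rose in probiotic against untreated mice (5.45%, against 2.13% of all genes) and 0 fell (against 0.669%). That count was 0 without any 1 of untreated colitis mice 6 and 10 and probiotic colitis mice 5 and 7, 8 without untreated colitis mouse 5 and 12 without probiotic colitis mouse 8. With these 2 groups fitted alone it was 0 (Col1a2 at an adjusted p of 0.250, Col14a1 at 0.176 and Loxl3 at 0.174). The shares of all genes here and above come from the fit of all 20 arrays. Counts of members under other settings thus have no such share beside them. In cyclosporine against untreated mice 2 members rose (3.64%, against 7.58%) and 6 fell (10.9%, against 5.58%), and without the 3 arrays set apart in earlier work on these data (mouse 2 of the untreated healthy, mouse 6 of the untreated colitis and mouse 8 of the probiotic colitis group) 10 fell. Without those arrays the calls of Loxl3 in probiotic against untreated colitis (adjusted p = 0.0570), Col6a5 in cyclosporine against untreated colitis (0.0812), Col6a4 in cyclosporine colitis against healthy mice (0.103) and Col6a3 in probiotic colitis (0.0702) did not pass, and the other 55 of the 59 member calls did. In cyclosporine against probiotic mice 1 member rose (1.82%, against 11.3%) and 14 fell (25.5%, against 12%). Between the healthy groups 0 members passed in limma, as did 0% of all genes in either direction, with 4 members at an unadjusted p under 0.05. For the interaction, whether the probiotic changes the difference that colitis makes, 0 members and 0% of all genes passed in either direction, with 3 members at an unadjusted p under 0.05. The plot of the members that passed against a healthy group shows each change with its error.

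**Figure D1:**
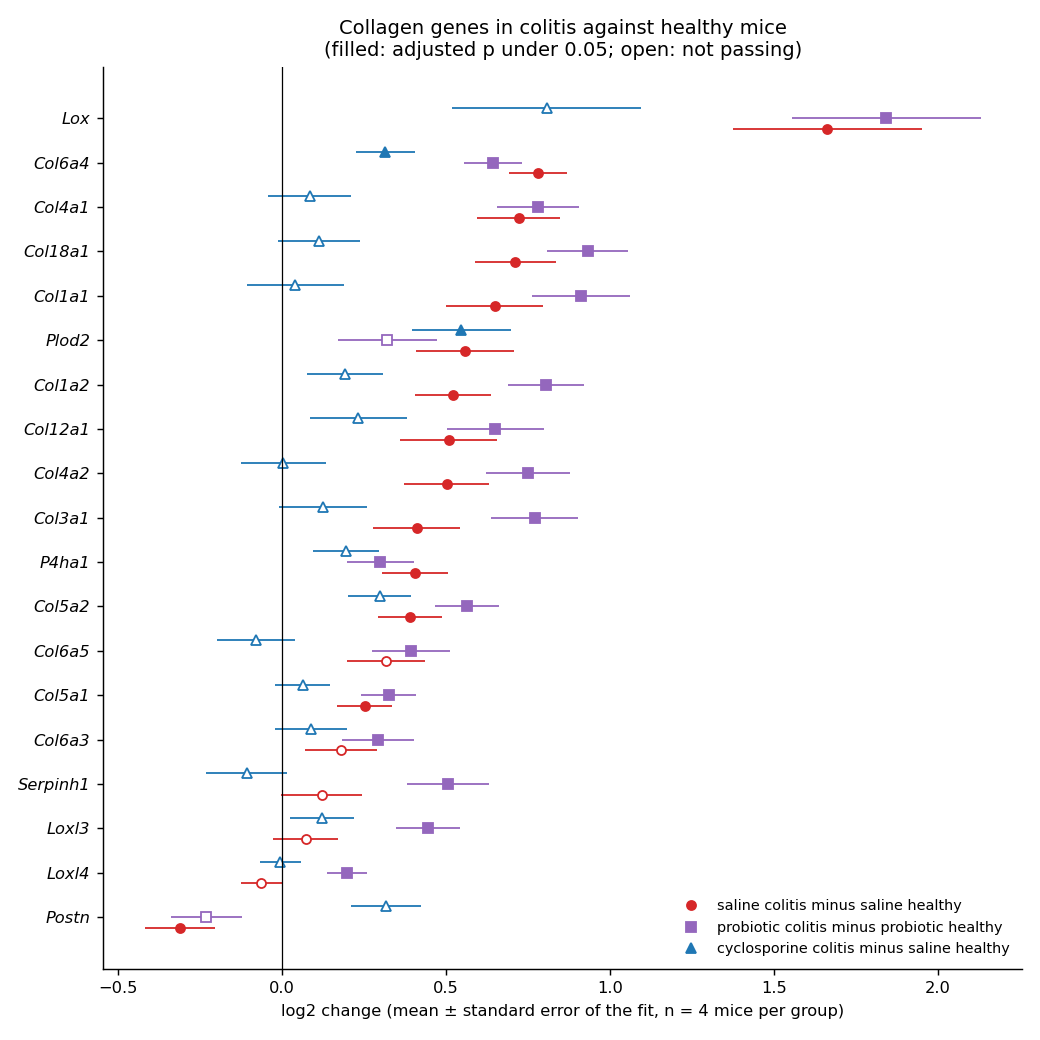
Log2 change (± the fitted standard error, with n = 4 mice in each group) of the 19 members that passed in at least 1 comparison with healthy mice (the untreated groups are marked saline). Filled symbols passed at an adjusted p under 0.05 and open symbols did not. Lox lies farthest right, at 1.66 in untreated and 1.84 in probiotic colitis, and cyclosporine colitis (triangles) lies left of both other colitis groups for all but Loxl3, Loxl4, Plod2 and Postn.

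The fibrillar chains Col1a1, Col1a2, Col3a1, Col5a1 and Col5a2 rose in colitis, and the other 6 of the class, among them the type V chain Col5a3, did not pass. In untreated colitis 5 of 11 rose and 0 fell (against 11.7% and 14.4% of all genes), with a class median of 0.12 against -0.03 over all genes. In probiotic colitis the same 5 rose and 0 fell (against 13.6% and 16.1%, median 0.12, all genes -0.04). Cyclosporine colitis differed from untreated healthy mice for 0 of the 11 (against 2.64% of all genes higher and 3.38% lower, median 0.04, 1 at an unadjusted p under 0.05). Against untreated colitis, cyclosporine mice had 1 of 11 members lower (against 5.58% of all genes). Against probiotic colitis 5 were lower (Col1a1, Col1a2, Col3a1, Col5a1 and Col5a2, against 12%). The latter comparison shares the probiotic colitis mice with the rise in probiotic colitis, and is no independent sign of it. The class medians rested on which members were counted, and with a filter at the 50th percentile they were 0.39 in untreated and 0.56 in probiotic colitis. In untreated colitis 12 of 13 smooth muscle markers fell (against 14.4% of all genes) and 5 of 10 macrophage markers rose (against 11.7%). In probiotic colitis 9 of the former fell (against 16.1%) and 8 of the latter rose (against 13.6%). In probiotic against untreated colitis 8 macrophage markers rose (against 2.13%), and in cyclosporine against probiotic colitis 7 fell (against 12%). In cyclosporine against untreated colitis 0 of the 10 rose (against 7.58%) and 0 fell (against 5.58%). In cyclosporine colitis against untreated healthy mice 3 of the macrophage markers rose (against 2.64%). The part of those cells in the fibrillar values was not tested.

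Col1a1 encodes the main chain of type I collagen, the most abundant fibril former. It read 9.58, 9.53, 9.65 and 9.53 in untreated healthy mice and 9.49, 9.56, 9.71 and 9.53 in probiotic healthy mice. In the colitis groups it read 10.55, 9.95, 10.28 and 10.08 in untreated colitis, 10.48, 10.79, 10.74 and 9.93 in probiotic colitis and 9.43, 9.70, 9.76 and 9.55 in cyclosporine colitis. All 8 mice with untreated or probiotic colitis lay above every healthy and every cyclosporine mouse. Col1a1 rose by 0.65 ± 0.15 (1.57-fold, adjusted p = 0.00332) in untreated and by 0.91 ± 0.15 (adjusted p = 0.000125) in probiotic colitis. In cyclosporine mice it fell by 0.61 ± 0.15 against untreated colitis (adjusted p = 0.0112) and by 0.87 ± 0.15 against probiotic colitis (adjusted p = 0.000467), and it stood 0.04 ± 0.15 from untreated healthy mice (adjusted p = 0.897).

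Col1a2 encodes the second chain of the type I molecule. It read 9.12, 9.22, 9.35 and 9.09 in untreated healthy mice and 9.26, 9.35, 9.43 and 9.37 in probiotic healthy mice. In colitis Col1a2 read 9.95, 9.50, 9.77 and 9.65 in untreated colitis, 10.19, 10.39, 10.32 and 9.72 in probiotic colitis and 9.33, 9.43, 9.43 and 9.36 in cyclosporine colitis. Untreated and probiotic colitis mice lay above all other mice and overlapped each other through probiotic mouse 8. The gene rose by 0.52 ± 0.12 (adjusted p = 0.00270) in untreated and by 0.80 ± 0.12 (adjusted p = 3.96e-05) in probiotic colitis. It was higher in probiotic than in untreated colitis by 0.44 ± 0.12 (adjusted p = 0.0481). With 1 array left out that adjusted p ranged from 0.00100 to 0.198, and it did not pass without untreated colitis animal 6, 7 or 10 or probiotic colitis animal 3, 5 or 7. In cyclosporine mice Col1a2 fell by 0.77 ± 0.12 against probiotic colitis (adjusted p = 0.000197), while the difference of -0.33 ± 0.12 from untreated colitis did not pass (adjusted p = 0.0665).

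Col3a1 encodes type III collagen, which forms thinner fibrils together with type I. Its values were 9.82, 10.02, 10.21 and 9.96 in untreated healthy mice and 10.00, 10.09, 10.18 and 10.18 in probiotic healthy mice. The colitis groups gave Col3a1 values of 10.69, 10.17, 10.47 and 10.33 in untreated colitis, 10.91, 11.14, 11.01 and 10.47 in probiotic colitis and 9.96, 10.09, 10.41 and 10.05 in cyclosporine colitis. Untreated colitis mouse 6 lay below untreated healthy mouse 6, so that these groups overlapped, whereas the probiotic colitis mice lay above all probiotic healthy mice. Col3a1 rose by 0.41 ± 0.13 in untreated colitis (adjusted p = 0.0288) and by 0.77 ± 0.13 in probiotic colitis (adjusted p = 0.000219). Leaving out 1 array moved the first adjusted p over 0.0133 to 0.105, and it did not pass without untreated healthy animal 2, 4 or 7 or untreated colitis animal 5 or 7. Cyclosporine mice stood -0.76 ± 0.13 from probiotic colitis (adjusted p = 0.000628), and probiotic stood 0.47 ± 0.13 from untreated colitis, which did not pass (adjusted p = 0.0624).

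Type V collagen nucleates type I fibrils and sets their diameter. Col5a2, one of its chains, read 7.31, 7.54, 7.68 and 7.49 in untreated healthy mice and 7.54, 7.68, 7.72 and 7.61 in probiotic healthy mice. In colitis Col5a2 read 8.04, 7.75, 7.94 and 7.84 in untreated colitis, 8.28, 8.35, 8.26 and 7.93 in probiotic colitis and 7.72, 7.93, 7.88 and 7.68 in cyclosporine colitis. Untreated colitis mice lay above all untreated healthy mice, and cyclosporine mice overlapped untreated colitis. Col5a2 rose by 0.39 ± 0.10 (adjusted p = 0.00578) in untreated and by 0.56 ± 0.10 (adjusted p = 0.000197) in probiotic colitis, and fell by 0.40 ± 0.10 in cyclosporine against probiotic colitis (adjusted p = 0.00525). Col5a1, the other main chain, rose by 0.25 ± 0.08 (adjusted p = 0.0323) and by 0.33 ± 0.08 (adjusted p = 0.00600) in the same comparisons, and fell by 0.37 ± 0.08 in cyclosporine against probiotic colitis (adjusted p = 0.00382). The first of these did not pass without any 1 of 6 arrays (untreated healthy animal 4, 6 or 7 or untreated colitis animal 5, 7 or 10, adjusted p 0.0507 to 0.0924). A second, dimmer probe set of Col5a1 differed by 0.05 and -0.10 in the comparisons with healthy mice. With both averaged, no call of Col5a1 passed (adjusted p = 0.156, 0.303 and 0.101 in the order given).

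The remaining fibrillar members were Col2a1, Col5a3, Col11a1, Col11a2, Col24a1 and Col27a1, of which type II and type XI chains are known from cartilage. Their changes lay between -0.10 and 0.12 in untreated colitis, between -0.05 and 0.12 in probiotic colitis and between -0.24 and 0.08 in cyclosporine against untreated colitis. Col2a1, Col11a1, Col11a2 and Col24a1 had every group mean under 6.60. The class split into 5 chains that moved in colitis and 6 that did not pass in any comparison.

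Among the basement membrane collagens Col4a1, Col4a2 and Col18a1 rose in colitis and the other 5 did not pass. Untreated colitis had 3 of 8 higher (against 11.7% of all genes) and 0 lower (against 14.4%), with a median of -0.04 (all genes -0.03). Probiotic colitis had 3 higher (against 13.6%) and 0 lower (against 16.1%), with a median of 0.12. With a filter at the 50th percentile these medians were 0.50 and 0.75, and with the 6 type IV chains alone the one in probiotic colitis was -0.052. Col18a1, at healthy means of 6.42 and 6.41, passed that filter, set at 6.60, through mice with untreated or probiotic colitis. The higher medians thus follow in part from the filter and are given as a description. In cyclosporine colitis 0 of the 8 differed from untreated healthy mice (against 2.64% of all genes higher and 3.38% lower, median 0.01, 2 at an unadjusted p under 0.05). Of 12 endothelial markers 2 rose in untreated colitis (16.7%, against 11.7% of all genes) and 4 in probiotic colitis (33.3%, against 13.6%). In cyclosporine against untreated colitis 1 rose (8.33%, against 7.58%) and 0 fell (against 5.58%). In cyclosporine colitis against untreated healthy mice 2 rose (16.7%, against 2.64%). In cyclosporine against probiotic colitis 7 fell (58.3%, against 12%). The part of endothelial cells was not tested. Cyclosporine mice had Col4a1, Col4a2 and Col18a1 lower than untreated colitis (against 5.58% of all genes, median -0.11 over the 8) and lower than probiotic colitis (against 12%, median -0.14). The plot of the main fibrillar and basement membrane genes by mouse shows the values behind these calls.

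**Figure D2:**
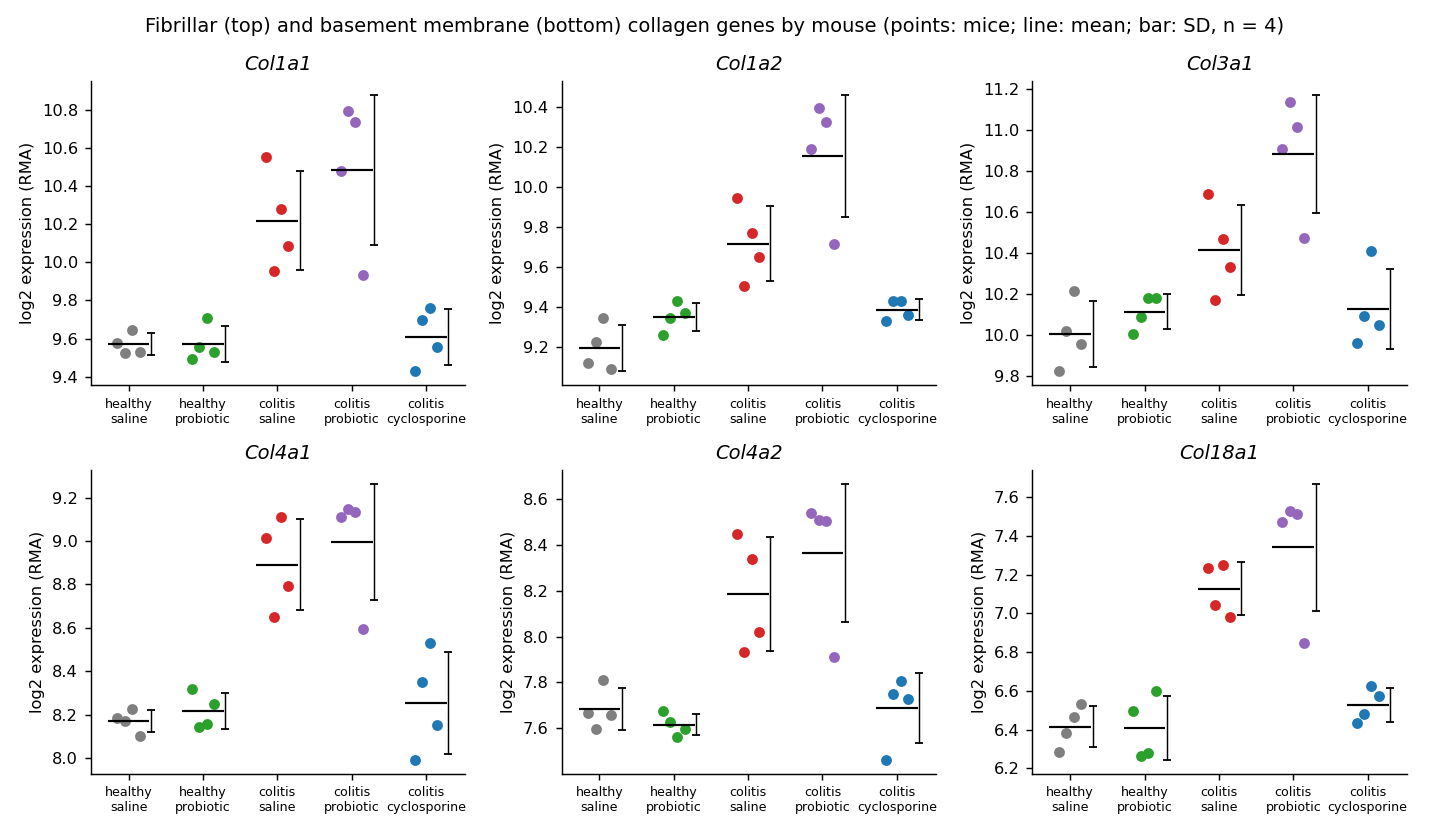
Log2 expression (vertical axes) of Col1a1, Col1a2 and Col3a1 (top) and of Col4a1, Col4a2 and Col18a1 (bottom) in the 5 groups. Points are mice, lines group means and bars SD (n = 4). Probiotic colitis mouse 8 is the low point of its group in all 6 panels, and the cyclosporine colitis means lie near the healthy means.

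Col4a1 encodes the chain present in the type IV network of nearly all basement membranes. It read 8.18, 8.17, 8.23 and 8.10 in untreated healthy mice and 8.32, 8.14, 8.15 and 8.25 in probiotic healthy mice. In colitis Col4a1 read 9.02, 8.65, 9.11 and 8.79 in untreated colitis, 9.11, 9.15, 9.13 and 8.59 in probiotic colitis and 7.99, 8.35, 8.53 and 8.15 in cyclosporine colitis. Every mouse with untreated or probiotic colitis lay above every healthy and every cyclosporine mouse. Col4a1 rose by 0.72 ± 0.13 (1.65-fold, adjusted p = 0.000417) in untreated and by 0.78 ± 0.13 (adjusted p = 0.000122) in probiotic colitis. In cyclosporine mice Col4a1 fell by 0.64 ± 0.13 against untreated (adjusted p = 0.00291) and by 0.74 ± 0.13 against probiotic colitis (adjusted p = 0.000490).

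Col4a2 encodes the partner chain and lies head to head with Col4a1, as the shared 22 bases printed above show. Its readings were 7.67, 7.60, 7.81 and 7.66 in untreated healthy mice and 7.67, 7.63, 7.56 and 7.60 in probiotic healthy mice. The colitis mice gave 8.45, 7.93, 8.34 and 8.02 in untreated colitis, 8.54, 8.51, 8.50 and 7.91 in probiotic colitis and 7.46, 7.75, 7.81 and 7.73 in cyclosporine colitis. Again no untreated or probiotic colitis animal overlapped the healthy or the cyclosporine mice. Col4a2 rose by 0.50 ± 0.13 (adjusted p = 0.00738) in untreated and by 0.75 ± 0.13 (adjusted p = 0.000202) in probiotic colitis. In cyclosporine mice it fell by 0.50 ± 0.13 against untreated colitis (adjusted p = 0.0156) and by 0.68 ± 0.13 against probiotic colitis (adjusted p = 0.00105). With 1 array left out the adjusted p against untreated colitis ranged from 0.00775 to 0.0552, and it did not pass without untreated colitis animal 5 or 7 or cyclosporine colitis animal 4, nor with those groups fitted alone (0.0506).

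Col18a1 encodes type XVIII collagen, a proteoglycan of epithelial and vascular basement membranes whose end fragment is endostatin. It read 6.29, 6.38, 6.46 and 6.53 in untreated healthy mice and 6.50, 6.26, 6.28 and 6.60 in probiotic healthy mice. In colitis Col18a1 read 7.24, 7.04, 7.25 and 6.98 in untreated colitis, 7.47, 7.53, 7.51 and 6.85 in probiotic colitis and 6.43, 6.48, 6.63 and 6.57 in cyclosporine colitis. The lowest untreated or probiotic colitis animal, probiotic mouse 8, still lay above the highest mouse of the other 3 groups. Col18a1 rose by 0.71 ± 0.12 (adjusted p = 0.000407) in untreated and by 0.93 ± 0.12 (1.91-fold, adjusted p = 1.98e-05) in probiotic colitis. In cyclosporine mice it fell by 0.60 ± 0.12 against untreated (adjusted p = 0.00399) and by 0.81 ± 0.12 against probiotic colitis (adjusted p = 0.000220).

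The other type IV chains, Col4a3, Col4a4, Col4a5 and Col4a6, form specialised networks in kidney, lung and smooth muscle, and Col15a1 links basement membranes to the stroma. In untreated colitis these 5 stood at -0.16 to -0.04 and in probiotic colitis at -0.13 to 0.24, and none passed. Col15a1 had the highest of the latter values, 0.24 ± 0.10 (adjusted p = 0.0774), and stood 0.36 ± 0.10 higher in probiotic than in untreated colitis without passing (adjusted p = 0.0626). Col4a5 and Col4a6, whose annotated starts lie 1343 bases apart, did not pass in any comparison. Col4a3, Col4a4 and Col4a6 had every group mean under 6.60.

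**Figure D3:**
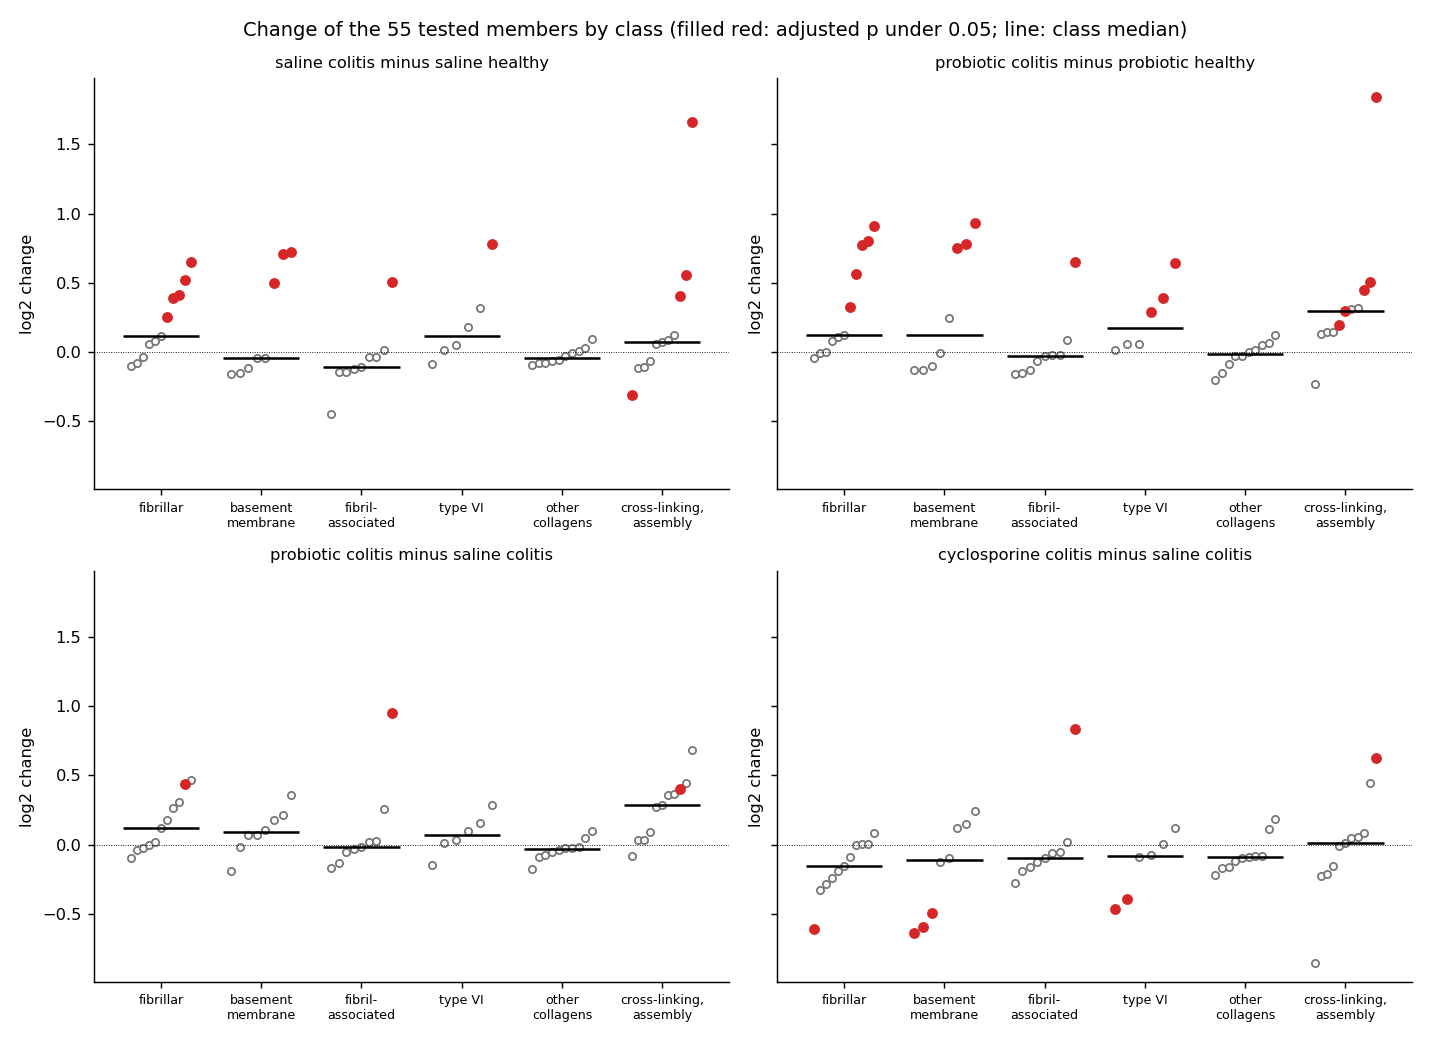
Log2 change (vertical axes) of each of the 55 members, grouped by class, in 4 comparisons. Filled points passed at an adjusted p under 0.05, open points did not, and lines are class medians. Class medians span -0.15 to 0.30 in these panels, Lox is the highest point of both upper panels, and the 10 other collagens hold no passing member in any panel.

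Averaged over all measured members, fibrillar and basement membrane collagens stood at about the same distance from each other in every group. Per mouse, the mean of the 11 fibrillar members minus the mean of the 8 basement membrane members was set against the untreated healthy mean. That difference was 0.12, 0.02, -0.05 and 0.03 in untreated colitis (0.03 ± 0.07, SD) and 0.05, 0.20, 0.13 and -0.07 in probiotic colitis (0.08 ± 0.11). It was 0.11, 0.07, -0.06 and 0.06 in cyclosporine colitis (0.04 ± 0.07) and -0.04, 0.07, 0.09 and 0.05 in probiotic healthy mice (0.04 ± 0.06). The untreated healthy mice ranged from -0.09 to 0.04, so that all 5 groups overlapped. No test was run on this score. Both means included members with every group mean under 6.60 (Col2a1, Col11a1, Col11a2 and Col24a1, and Col4a3, Col4a4 and Col4a6). The score therefore cannot show whether the brighter chains of both classes moved alike. With the fibrillar class cut to Col1a1, Col1a2, Col3a1, Col5a1 and Col5a2, the chains that passed in colitis, and the other to the 6 type IV chains, of which 4 passed in no comparison, the same difference was 0.32 ± 0.17 in untreated colitis (0.13 to 0.55), 0.62 ± 0.25 in probiotic colitis (0.28 to 0.87), 0.20 ± 0.04 in cyclosporine colitis (0.17 to 0.25) and 0.13 ± 0.08 in probiotic healthy mice (0.03 to 0.22). Those chains were chosen with earlier results known, so that the size of this difference follows from the choice and is given as a description.

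Each class mean taken alone separated untreated colitis from untreated healthy mice, but neither shows a rise of the whole class. In untreated colitis the basement membrane mean was raised by Col4a1, Col4a2 and Col18a1, while the other 5 members stood at -0.16 to -0.04. The 6 fibrillar members that did not pass stood at -0.10 to 0.12. The fibrillar mean lay 0.14 to 0.32 above the untreated healthy mean in untreated colitis and 0.11 to 0.49 above it in probiotic colitis. In cyclosporine colitis it lay between -0.01 and 0.14. The basement membrane mean lay 0.12 to 0.23 above in untreated colitis, 0.18 to 0.33 above in probiotic colitis and between -0.12 and 0.07 in cyclosporine colitis. For both classes the untreated colitis mice lay above all untreated healthy mice, which reached 0.07 for the fibrillar and 0.03 for the basement membrane mean. For the fibrillar mean probiotic colitis mouse 8 (0.11) lay below the highest probiotic healthy mouse (0.12), so that those groups overlapped.

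A narrower difference, the mean of Col1a1, Col1a2 and Col3a1 minus that of Col4a1 and Col4a2, was computed after the values had been seen and is given as a description. It was 0.00, -0.08, -0.21 and -0.05 in untreated colitis (-0.08 ± 0.09) and 0.04, 0.28, 0.21 and 0.13 in probiotic colitis (0.16 ± 0.11), so that these groups did not overlap. Cyclosporine colitis lay at 0.07 ± 0.07 and probiotic healthy mice at 0.10 ± 0.13, overlapping probiotic colitis.

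**Figure D4:**
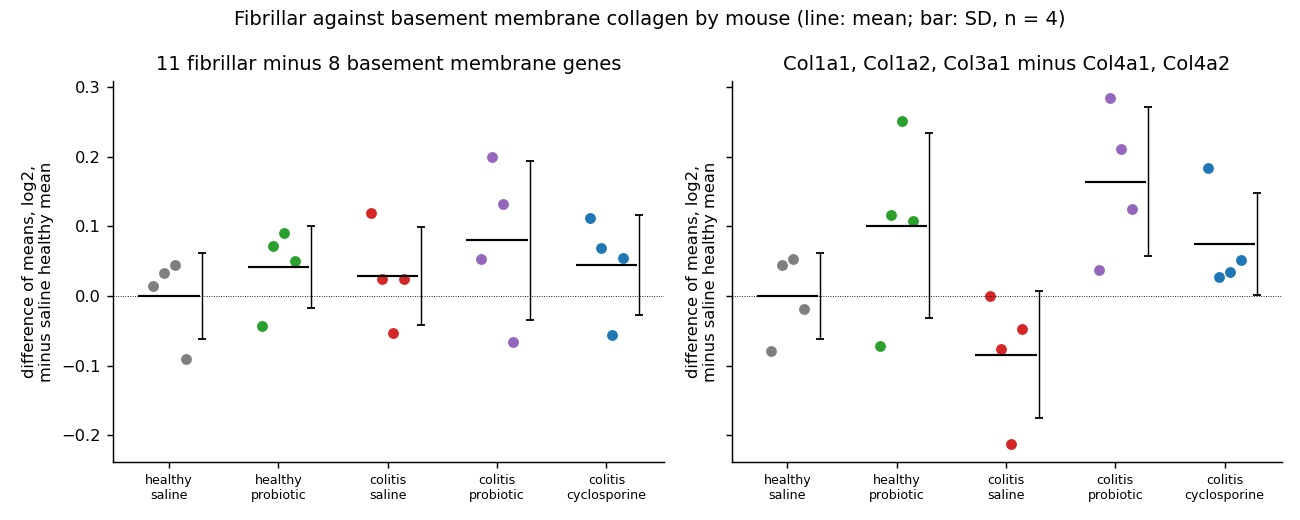
Difference between fibrillar and basement membrane means by mouse (log2, relative to the untreated healthy mean) for all 11 and 8 members (left) and for 3 fibrillar and 2 basement membrane genes (right). Points are mice, lines means and bars SD (n = 4). On the left all groups overlap around 0, and on the right untreated colitis (-0.21 to 0.00) lies below probiotic colitis (0.04 to 0.28).

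Fibril-associated collagens sit on the surface of fibrils and link them to other matrix. Of 9, Col12a1 alone rose in untreated colitis (against 11.7% of all genes) and in probiotic colitis (against 13.6%). In either 0 fell (against 14.4% and 16.1%, medians -0.11 and -0.03). Col14a1 was higher in both treated colitis groups than in untreated colitis. The other 7 (Col9a1, Col9a2, Col9a3, Col16a1, Col19a1, Col20a1 and Col22a1) passed in no comparison and stood at -0.15 to 0.01 in untreated colitis. Col9a1, Col9a3, Col19a1 and Col22a1 had every group mean under 6.60.

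Col12a1 encodes type XII collagen, found on type I fibrils under load. It read 8.77, 8.96, 8.96 and 8.88 in untreated healthy mice and 8.87, 9.01, 9.05 and 9.09 in probiotic healthy mice. In colitis Col12a1 read 9.62, 9.12, 9.64 and 9.22 in untreated colitis, 9.90, 9.83, 9.77 and 9.12 in probiotic colitis and 8.90, 9.26, 9.31 and 9.03 in cyclosporine colitis. Untreated and probiotic colitis mice lay above their healthy controls and overlapped the cyclosporine mice. Col12a1 rose by 0.51 ± 0.15 (adjusted p = 0.0162) in untreated and by 0.65 ± 0.15 (adjusted p = 0.00236) in probiotic colitis. With 1 array left out the first adjusted p ranged from 0.00677 to 0.0592, and it did not pass without untreated colitis animal 5 or 7. Col12a1 fell by 0.53 ± 0.15 in cyclosporine against probiotic colitis (adjusted p = 0.0137), which did not pass without probiotic colitis animal 3 or 5 or cyclosporine colitis animal 4 (range 0.000244 to 0.0573) nor with those groups fitted alone (0.0553).

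Col14a1 encodes type XIV collagen, which binds fibrils through decorin and limits their growth. It read 7.06, 7.55, 7.66 and 7.49 in untreated healthy mice and 7.89, 8.13, 8.14 and 8.23 in probiotic healthy mice. In colitis Col14a1 read 7.50, 6.51, 7.21 and 6.74 in untreated colitis, 7.48, 8.33, 8.01 and 7.96 in probiotic colitis and 7.72, 8.10, 7.44 and 8.05 in cyclosporine colitis. Every probiotic healthy mouse lay above every untreated healthy mouse, and the lowest 2 values were those of untreated colitis mice 6 and 10. The gene stood 0.95 ± 0.20 higher in probiotic than in untreated colitis (adjusted p = 0.0213) and 0.84 ± 0.20 higher in cyclosporine than in untreated colitis (adjusted p = 0.0113). These comparisons share the untreated colitis mice, and in each the groups overlapped. With cyclosporine and untreated colitis fitted alone the second did not pass (adjusted p = 0.0536). Leaving out 1 array moved the first adjusted p over 0.00448 to 0.0965, and it did not pass without any 1 of untreated colitis mice 6 and 10 and probiotic colitis mice 5 and 7. The difference of 0.66 ± 0.20 between healthy groups did not pass (adjusted p = 0.391), nor did that of -0.45 ± 0.20 in untreated colitis (adjusted p = 0.117).

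Type VI collagen forms beaded filaments around cells and next to basement membranes. Col6a4 rose in untreated colitis (1 of 6 members, against 11.7% of all genes, median 0.11). Col6a3, Col6a4 and Col6a5 rose in probiotic colitis (3 of 6, against 13.6%, median 0.17). Of the type VI members 0 fell in either (against 14.4% and 16.1%). Col6a4 read 5.80, 5.79, 6.22 and 5.71 in untreated healthy mice and 6.13, 6.08, 6.00 and 5.90 in probiotic healthy mice. In colitis it read 6.73, 6.66, 6.63 and 6.62 in untreated colitis, 6.58, 6.61, 6.73 and 6.77 in probiotic colitis and 6.22, 6.23, 6.22 and 6.11 in cyclosporine colitis. Untreated and probiotic colitis mice formed a narrow band above all other mice, and cyclosporine mice lay below that band and overlapped both healthy groups. The plot of cross-linking enzymes, Col6a4, Col14a1 and Postn by mouse shows these values.

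Col6a4 rose by 0.78 ± 0.09 (1.72-fold, adjusted p = 1.01e-05) in untreated and by 0.64 ± 0.09 (adjusted p = 2.67e-05) in probiotic colitis. Cyclosporine colitis stood 0.31 ± 0.09 above untreated healthy mice (adjusted p = 0.0426), which did not pass without any 1 of the arrays of these groups other than untreated healthy mouse 6 (adjusted p 0.00736 to 0.119 over the 8). Cyclosporine mice lay -0.47 ± 0.09 from untreated colitis (adjusted p = 0.00230) and -0.48 ± 0.09 from probiotic colitis (adjusted p = 0.000918). Col6a5, a related chain with a dim signal, fell by 0.40 ± 0.12 in cyclosporine against untreated colitis (adjusted p = 0.0343) and by 0.43 ± 0.12 against probiotic colitis (adjusted p = 0.0139). The first did not pass without untreated colitis animal 6, 7 or 10 or cyclosporine colitis animal 4 or 9 (adjusted p 0.0505 to 0.114), the second without probiotic colitis mouse 7 or cyclosporine colitis animal 9 (adjusted p 0.0577 to 0.0594).

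Col6a5 rose by 0.39 ± 0.12 in probiotic colitis (adjusted p = 0.0172), which did not pass without probiotic healthy mouse 7 or probiotic colitis animal 7 (adjusted p 0.0611 to 0.0694). Its change of 0.32 ± 0.12 in untreated colitis did not pass (adjusted p = 0.0582). Col6a3, one of the 3 chains of the common type VI molecule, rose by 0.29 ± 0.11 in probiotic colitis (adjusted p = 0.04998), and did not pass without any 1 of 6 arrays (probiotic healthy animal 4, 5 or 6 or probiotic colitis animal 5, 7 or 8, adjusted p 0.0617 to 0.172), nor under 6 other settings (0.0501 to 0.0811). Col6a1 and Col6a2, its partner chains, and Col6a6, which had every group mean under 6.60, passed in no comparison. Their changes lay between -0.08 and 0.05 in untreated and between 0.02 and 0.06 in probiotic colitis.

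**Figure D5:**
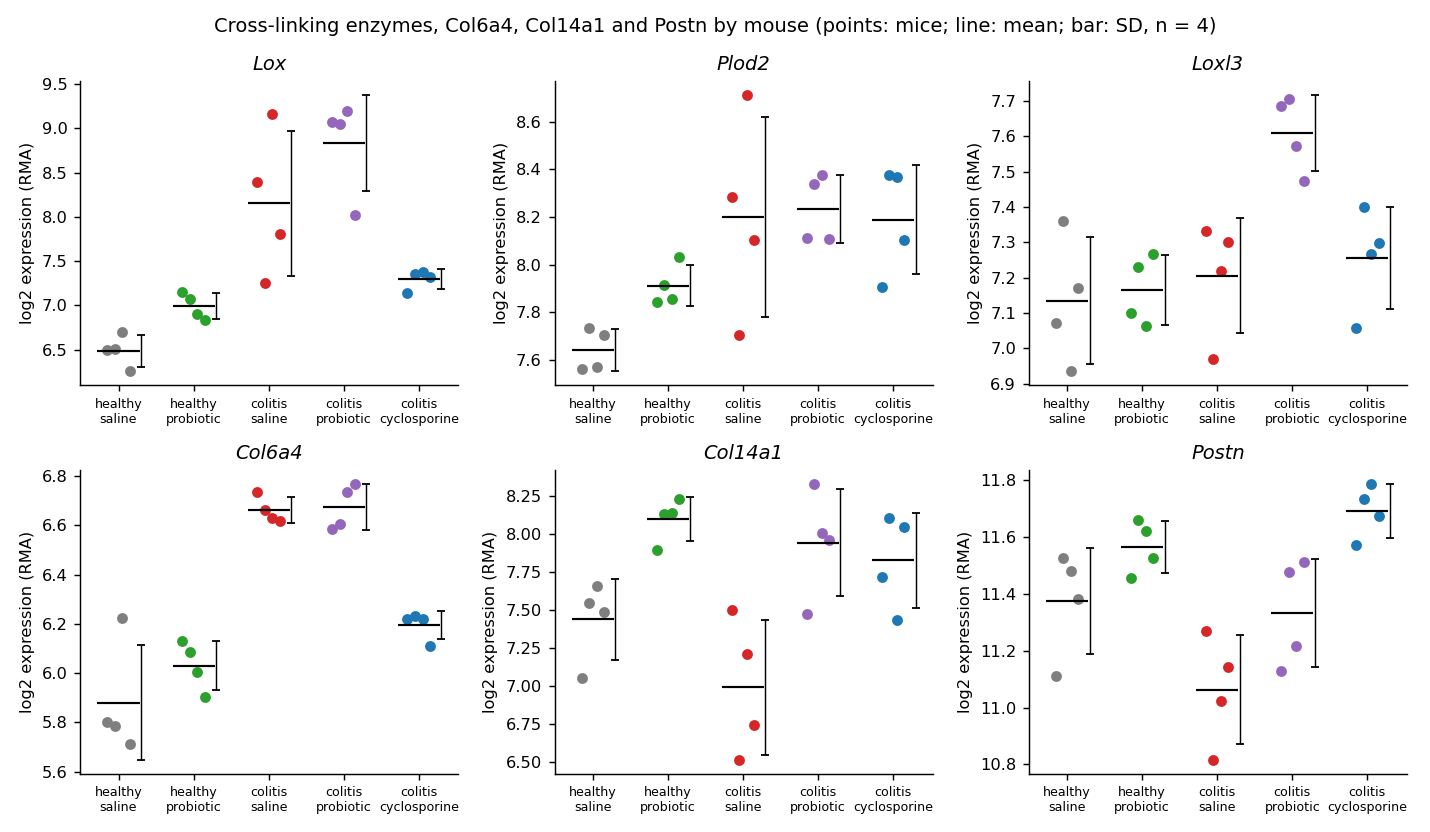
Log2 expression (vertical axes) of Lox, Plod2 and Loxl3 (top) and of Col6a4, Col14a1 and Postn (bottom) in the 5 groups. Points are mice, lines group means and bars SD (n = 4). Lox spans 7.25 to 9.16 in untreated colitis and 7.13 to 7.38 in cyclosporine colitis, and Postn is lowest in untreated and highest in cyclosporine colitis.

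The 10 other collagens were the anchoring fibril chain Col7a1, the short network chains Col8a1, Col8a2 and Col10a1, the membrane-spanning Col13a1, Col17a1, Col23a1 and Col25a1, and Col26a1 and Col28a1. None passed in any comparison. Of all genes 11.7% rose and 14.4% fell in untreated colitis, and 13.6% rose and 16.1% fell in probiotic colitis. The changes of these 10 members lay between -0.09 and 0.10 in untreated colitis and between -0.20 and 0.12 in probiotic colitis. In cyclosporine against untreated colitis they lay between -0.22 and 0.19. Col7a1, Col8a2, Col10a1, Col13a1, Col17a1 and Col28a1 had every group mean under 6.60.

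The cross-linking and assembly genes held the largest change of all members in either comparison with healthy mice, that of Lox. In untreated colitis 3 of 11 rose (against 11.7% of all genes) and 1 fell (against 14.4%), with a median of 0.07. In probiotic colitis 5 rose (against 13.6%) and 0 fell (against 16.1%), with a median of 0.30. Lox encodes lysyl oxidase, the copper enzyme that oxidises lysines of collagen and elastin and so starts cross-linking. It read 6.49, 6.51, 6.70 and 6.26 in untreated healthy mice and 7.15, 7.08, 6.91 and 6.83 in probiotic healthy mice. In colitis Lox read 8.39, 7.25, 9.16 and 7.81 in untreated colitis, 9.07, 9.05, 9.19 and 8.02 in probiotic colitis and 7.13, 7.35, 7.38 and 7.32 in cyclosporine colitis. All colitis mice, cyclosporine mice included, lay above the untreated healthy mice, and untreated colitis was the most scattered group.

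Lox rose by 1.66 ± 0.29 (3.17-fold, adjusted p = 0.000381) in untreated and by 1.84 ± 0.29 (3.59-fold, adjusted p = 8.49e-05) in probiotic colitis. It fell by 1.54 ± 0.29 in cyclosporine against probiotic colitis (adjusted p = 0.000950). The difference of -0.86 ± 0.29 from untreated colitis did not pass (adjusted p = 0.0554), nor did that of 0.81 ± 0.29 from untreated healthy mice (adjusted p = 0.0966). Probiotic stood 0.68 ± 0.29 from untreated colitis without passing (adjusted p = 0.215).

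Loxl3, a paralogue of Lox, read 7.07, 7.36, 6.93 and 7.17 in untreated healthy mice and 7.10, 7.23, 7.06 and 7.27 in probiotic healthy mice. In colitis Loxl3 read 7.33, 6.97, 7.22 and 7.30 in untreated colitis, 7.69, 7.71, 7.57 and 7.47 in probiotic colitis and 7.06, 7.40, 7.27 and 7.30 in cyclosporine colitis. The probiotic colitis mice lay above all mice of the other 4 groups. Loxl3 stood 0.45 ± 0.10 above probiotic healthy mice (adjusted p = 0.00185), 0.40 ± 0.10 above untreated colitis (adjusted p = 0.0360) and fell by 0.35 ± 0.10 in cyclosporine against probiotic colitis (adjusted p = 0.0130). With 1 array left out the second ranged from 0.0150 to 0.152 and did not pass without untreated colitis animal 6 or 10 or probiotic colitis animal 3, 5 or 7. The third did not pass without cyclosporine colitis mouse 4 (adjusted p = 0.0525, range 0.00776 to 0.0525). The change of 0.07 ± 0.10 in untreated colitis did not pass (adjusted p = 0.652), and the interaction for Loxl3 was 0.37 ± 0.14 (adjusted p = 0.513).

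Loxl4, another paralogue, had the smallest interaction p of the members, at 0.26 ± 0.09 (adjusted p = 0.473). It read 6.72, 6.87, 6.94 and 6.94 in untreated healthy mice and 6.70, 6.70, 6.74 and 6.66 in probiotic healthy mice. In colitis Loxl4 read 6.84, 6.73, 6.77 and 6.88 in untreated colitis, 6.97, 6.93, 6.84 and 6.83 in probiotic colitis and 6.84, 6.97, 6.79 and 6.84 in cyclosporine colitis. All probiotic colitis mice lay above all probiotic healthy mice, whereas the untreated groups overlapped. Loxl4 rose by 0.20 ± 0.06 in probiotic colitis (adjusted p = 0.0212), which did not pass without probiotic healthy mouse 7 or probiotic colitis animal 3 or 5 (adjusted p 0.0546 to 0.0734). Loxl1 passed in no comparison, at -0.11 ± 0.16 in untreated and 0.31 ± 0.16 in probiotic colitis.

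Plod2 encodes the lysyl hydroxylase of collagen telopeptides, which directs the kind of cross-link formed. It read 7.56, 7.73, 7.57 and 7.70 in untreated healthy mice and 7.84, 7.92, 7.86 and 8.03 in probiotic healthy mice. In colitis Plod2 read 8.28, 7.70, 8.71 and 8.10 in untreated colitis, 8.11, 8.34, 8.37 and 8.11 in probiotic colitis and 7.91, 8.38, 8.37 and 8.10 in cyclosporine colitis. Untreated colitis mouse 6 lay within the untreated healthy range, and every cyclosporine mouse lay above it. Plod2 rose by 0.56 ± 0.15 in untreated colitis (adjusted p = 0.00985) and by 0.55 ± 0.15 in cyclosporine colitis against untreated healthy mice (adjusted p = 0.0388). The second spanned adjusted p-values of 0.0377 to 0.0977 with 1 array left out and did not pass without untreated healthy animal 2, 6 or 7 or cyclosporine colitis animal 7, 9 or 10. With the compared groups fitted alone the first did not pass (adjusted p = 0.0536). In probiotic colitis its change was 0.32 ± 0.15 (adjusted p = 0.118), and cyclosporine stood -0.01 ± 0.15 from untreated colitis (adjusted p = 0.974). Plod1, which hydroxylates helical lysines, passed in no comparison.

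P4ha1 encodes the catalytic subunit of the prolyl hydroxylase that stabilises the triple helix. It read 8.07, 8.44, 8.32 and 8.13 in untreated healthy mice and 8.28, 8.25, 8.15 and 8.38 in probiotic healthy mice. In colitis P4ha1 read 8.56, 8.59, 8.85 and 8.58 in untreated colitis, 8.56, 8.59, 8.66 and 8.44 in probiotic colitis and 8.17, 8.52, 8.65 and 8.39 in cyclosporine colitis. Untreated and probiotic colitis mice lay above their own healthy controls, and cyclosporine mice overlapped the untreated healthy mice. P4ha1 rose by 0.41 ± 0.10 (adjusted p = 0.00628) in untreated and by 0.30 ± 0.10 (adjusted p = 0.0318) in probiotic colitis. The latter did not pass without any 1 of probiotic healthy animal 4, 5 or 6 or probiotic colitis animal 3, 5 or 7 (adjusted p 0.0556 to 0.0932). P4ha2 and P4ha3, alternative subunits, passed in no comparison and had every group mean under 6.60.

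Serpinh1 encodes HSP47, the collagen-specific chaperone of the endoplasmic reticulum. Its group means were 8.08 in untreated healthy, 8.05 in probiotic healthy, 8.20 in untreated colitis, 8.55 in probiotic colitis and 7.97 in cyclosporine colitis. Serpinh1 rose by 0.51 ± 0.12 in probiotic colitis (adjusted p = 0.00426) and fell by 0.58 ± 0.12 in cyclosporine against probiotic colitis (adjusted p = 0.00238), with no overlap of the groups in either. In untreated colitis its change was 0.12 ± 0.12 (adjusted p = 0.526), and the interaction was 0.39 ± 0.18 (adjusted p = 0.565).

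Postn encodes periostin, a matricellular protein that binds collagen I and aids its cross-linking, and was the 1 member that fell in untreated colitis. It read 11.11, 11.53, 11.48 and 11.38 in untreated healthy mice and 11.46, 11.66, 11.62 and 11.53 in probiotic healthy mice. In colitis Postn read 11.27, 10.82, 11.03 and 11.14 in untreated colitis, 11.13, 11.48, 11.22 and 11.51 in probiotic colitis and 11.57, 11.73, 11.79 and 11.67 in cyclosporine colitis. Every cyclosporine mouse lay above every untreated and every probiotic colitis mouse. Postn stood 0.63 ± 0.11 higher in cyclosporine than in untreated colitis (1.55-fold, adjusted p = 0.00100) and 0.36 ± 0.11 higher than in probiotic colitis (adjusted p = 0.0210). The latter did not pass without probiotic colitis animal 3 or 7 or cyclosporine colitis animal 7 or 9 (adjusted p 0.0510 to 0.0853). Postn fell by 0.31 ± 0.11 in untreated colitis (adjusted p = 0.0382), with overlapping groups. That fall ranged from 0.0104 to 0.126 in adjusted p with 1 array left out and did not pass without untreated healthy animal 4, 6 or 7 or untreated colitis animal 6 or 7, after a further quantile normalization (0.117) or with those groups fitted alone (0.0970).

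Other genes of collagen assembly are given as counts beside the shares of all genes in the same comparison. Of 13 tested genes of collagen folding and modification 3 rose (23.1%, against 11.7% of all genes) and 1 fell (7.69%, against 14.4%) in untreated colitis. Mia3, which loads procollagen into transport vesicles, rose by 0.49 ± 0.09 (adjusted p = 0.000558), and P3h2, a prolyl 3-hydroxylase, fell by 0.73 ± 0.13 (adjusted p = 0.000370). In cyclosporine against untreated colitis 1 of the 13 rose (7.69%, against 7.58%) and 4 fell (30.8%, against 5.58%). P3h2 stood at 1.06 ± 0.13 (adjusted p = 6.9e-05) and P4hb, the partner subunit of P4ha1, at -0.43 ± 0.07 (adjusted p = 0.000739). Of 8 procollagen processing genes 2 rose (25.0%, against 11.7%) and 0 fell in untreated colitis. Adamts3, a propeptidase, changed by 0.89 ± 0.12 (adjusted p = 4.58e-05), and Sparc, a collagen-binding protein, by 0.41 ± 0.11 (adjusted p = 0.00870). In probiotic colitis 3 of the 8 rose (37.5%, against 13.6%), with Bmp1, the C-propeptidase, at 0.37 ± 0.12 (adjusted p = 0.0219).

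Of 13 tested proteins that coat or bind fibrils 2 rose (15.4%) and 3 fell (23.1%) in untreated colitis, shares not far from the 11.7% and 14.4% of all genes. Among those that fell were tenascin-X (Tnxb, -0.82 ± 0.14, adjusted p = 0.000353) and Prelp (-0.78 ± 0.14, adjusted p = 0.000396). In probiotic against untreated colitis 3 rose (23.1%, against 2.13%) and 0 fell, namely decorin (Dcn, 0.76 ± 0.18, adjusted p = 0.0327), biglycan (Bgn, 0.70 ± 0.17, adjusted p = 0.0339) and lumican (Lum, 0.67 ± 0.18, adjusted p = 0.0475). Of 15 basement membrane partners 4 rose (26.7%, against 11.7%) and 1 fell (6.67%, against 14.4%) in untreated colitis, and 6 rose (40.0%, against 13.6%) and 1 fell in probiotic colitis. The laminin chain Lama1 changed by 0.98 ± 0.14 in untreated (adjusted p = 6.59e-05) and by 1.00 ± 0.14 in probiotic colitis (adjusted p = 2.51e-05), and Lamb2 by -0.49 ± 0.08 in untreated colitis (adjusted p = 0.000217). In cyclosporine against probiotic colitis 0 of the 15 rose and 7 fell (46.7%, against 12%), with Lama1 at -0.98 ± 0.14 (adjusted p = 0.000140) and nidogen-2 (Nid2) at -0.62 ± 0.12 (adjusted p = 0.000887).

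Of 9 tested genes of collagen receptors and uptake 3 rose and 3 fell in untreated colitis (33.3% each, against 11.7% and 14.4%). Those that rose included the integrin chain Itga2 (0.71 ± 0.11, adjusted p = 0.000124), and those that fell included Gp6 (-0.46 ± 0.10, adjusted p = 0.00179). In cyclosporine against untreated colitis 4 of the 9 rose (44.4%, against 7.58%) and 1 fell (11.1%, against 5.58%). Of 11 profibrotic signals 3 rose (27.3%, against 11.7%) and 1 fell in untreated colitis, and 6 rose (54.5%, against 13.6%) and 1 fell in probiotic colitis. In cyclosporine against probiotic colitis 1 rose and 5 fell (45.5%, against 12%). Tgfb1, the growth factor that induces collagen genes in fibroblasts, changed by 0.74 ± 0.15 in untreated (adjusted p = 0.00148), by 0.99 ± 0.15 in probiotic colitis (adjusted p = 7.23e-05) and by -0.56 ± 0.15 in cyclosporine against untreated colitis (adjusted p = 0.0209). In that last comparison 1 of the 11 rose and 1 fell (9.09% each, against 7.58% and 5.58% of all genes). Its paralogue Tgfb2 went the other way, at 0.48 ± 0.10 in cyclosporine against untreated colitis (adjusted p = 0.00596) and at -0.30 ± 0.10 in untreated colitis (adjusted p = 0.0396).

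Among markers of cell types in the tissue, smooth muscle and macrophage markers moved with the groups most often. Of 13 smooth muscle markers 12 fell (92.3%, against 14.4% of all genes) and 0 rose in untreated colitis, 9 fell in probiotic colitis (69.2%, against 16.1%), and 11 rose in cyclosporine against untreated colitis (84.6%, against 7.58%). Their mean per mouse was 10.3 to 10.5 in untreated healthy, 10.2 to 10.4 in probiotic healthy, 9.54 to 9.92 in untreated colitis, 9.63 to 10.1 in probiotic colitis and 9.85 to 10.5 in cyclosporine colitis. Smooth muscle markers thus ran in the direction opposite to Col1a1, Col4a1 and Col18a1 in these comparisons and in the same direction as Postn in untreated colitis and in cyclosporine against untreated colitis. Of 12 fibroblast markers 1 rose (8.33%) and 2 fell (16.7%) in untreated colitis, near the 11.7% and 14.4% of all genes, and 4 rose (33.3%, against 13.6%) and 1 fell in probiotic colitis. In probiotic against untreated colitis 2 rose (16.7%, against 2.13%) and 0 fell, and in cyclosporine against untreated colitis 3 rose (25%, against 7.58%) and 0 fell. In cyclosporine against probiotic colitis 2 rose (16.7%, against 11.3%) and 5 fell (41.7%, against 12%). The fibroblast mean per mouse was 7.51 to 7.82, 7.82 to 7.94, 7.39 to 7.95, 7.87 to 8.31 and 7.72 to 8.02 in the same order of groups. Of 12 endothelial markers 2 rose in untreated colitis (16.7%, against 11.7%) and 4 in probiotic colitis (33.3%, against 13.6%), and 7 fell in cyclosporine against probiotic colitis (58.3%, against 12%). In cyclosporine against untreated colitis 1 endothelial marker rose (8.33%, against 7.58%) and 0 fell. In cyclosporine colitis against untreated healthy mice 2 rose (16.7%, against 2.64%). Of 10 macrophage markers 5 rose in untreated colitis (50%, against 11.7%) and 8 in probiotic colitis (80.0%, against 13.6%). In probiotic against untreated colitis 8 rose (80.0%, against 2.13%), and in cyclosporine against probiotic colitis 7 fell (70.0%, against 12%). In cyclosporine against untreated colitis 0 of the macrophage markers rose (against 7.58%) and 0 fell (against 5.58%). In cyclosporine colitis against untreated healthy mice 3 rose (30%, against 2.64%) and 0 fell. Their mean per mouse was 7.81 to 7.92 in untreated healthy and 8.04 to 8.34 in probiotic healthy mice. It was 7.91 to 9.03 in untreated colitis, 8.90 to 9.49 in probiotic colitis and 8.08 to 8.60 in cyclosporine colitis. None of 4 enteric glia and 5 mesothelium markers passed in any of the 8 comparisons. The part of these cell types in the collagen results was not tested.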

How the data were processed

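Gene expression in the middle colon of 20 mice was measured on Affymetrix arrays, 1 per mouse, in 5 groups of 4 taken from the labels. The log2 values were deposited by the authors after RMA, a background correction, quantile normalization and summary of probes, per the submitters' processing notes, and were used as deposited. RMA is known to compress differences of dim probe sets. Probe sets were named through the platform annotation, and those naming several genes were left out.

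Probe sets were kept above 5.30, the 25th percentile, on at least 4 arrays, and the brightest stood for each gene. The 16739 genes were fitted with limma 3.58.1 in R 4.3.3 as 5 group means over 20 arrays (15 residual and 4.03 prior degrees of freedom), with empirical Bayes moderation and Benjamini-Hochberg adjustment within each of 8 comparisons, and tested on simulated data. Values on all arrays are given for up to 12 members with the largest passing changes in untreated colitis, up to 4 with the smallest p in each treatment comparison (1 where none passed), and Col1a1, Col1a2, Col3a1, Col4a1 and Col4a2. Up to 4 genes of any other list with the smallest p in a comparison were named. Members and lists were chosen with earlier results of these data known. The series describes its replicates as separate mice. No batch was named in the labels.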

Additional observations from a re-analysis of the deposited data

Results flagged for a closer look

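Among the 16 members given by mouse and 3 class quantities, 95 sets of 4 mice were searched for a value whose gap to its nearest neighbour, as a share of the group's range, exceeded Dixon's critical value. There were 7, and chance gives about 5% of such sets. Probiotic colitis mouse 8 was the low value in 5 of them. Its Lox was 8.024 while the other mice of its group read 9.048 to 9.192. Its Col4a1 was 8.594 against 9.111 to 9.149, and its Col4a2 was 7.911 against 8.504 to 8.539. For Col18a1 it read 6.847 against 7.47 to 7.53, and for Col12a1 9.118 against 9.774 to 9.9. Without that mouse the change in probiotic colitis was 2.11 for Lox, 0.91 for Col4a1, 0.90 for Col4a2, 1.10 for Col18a1 and 0.83 for Col12a1. Cyclosporine colitis mouse 10 was low for Col6a4 (6.111 against 6.218 to 6.233). Untreated colitis mouse 7 was high for P4ha1 (8.852 against 8.563 to 8.586).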

How the results depend on the processing

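Of 59 member results that passed, none changed direction under any alternative run. Calls kept were 56 with no filter on dim probe sets, 56 of 56 with the filter at the 50th percentile, 56 after a further quantile normalization, 58 with arrays centred on their median, 59 with a trended and robust prior, 58 with array weights, 55 with probe sets of a gene averaged, 49 when the compared groups were fitted alone, 55 without the 3 arrays set apart, and 391 of 472 with 1 array left out. The filter at the 50th percentile kept Col6a4 and Col18a1 through mice with untreated or probiotic colitis, where both were high.

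The members that fell in untreated colitis numbered 0 after quantile normalization or in the groups alone and 2 with array weights. Those that fell in probiotic colitis numbered 1 with array weights, in the groups alone or without the 3 arrays. Members higher in cyclosporine colitis than in untreated healthy mice numbered 1 with no filter or with array weights. Members higher in probiotic than in untreated colitis numbered 11 with array weights, 0 in the groups alone and 5 without the 3 arrays. In cyclosporine against untreated colitis 1 member rose in the groups alone and 10 fell without the 3 arrays. The causes were not tested. Shares of all genes under these settings, or with 1 array left out, are not given. The counts of members thus cannot be told apart from a change in calls over all genes.

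Class medians followed the members counted. With the filter at the 50th percentile, which leaves fewer genes, the fibrillar median was 0.39 in untreated colitis, 0.56 in probiotic colitis, 0.27 for probiotic against untreated colitis and -0.40 for cyclosporine against probiotic colitis. The basement membrane median was then 0.50 in untreated colitis, 0.75 in probiotic colitis, 0.0845 in cyclosporine colitis against healthy mice, 0.18 for probiotic against untreated colitis, -0.50 and -0.68 for cyclosporine against untreated and probiotic colitis, and 0.22 for the interaction. Col18a1 passed that filter through mice with untreated or probiotic colitis, so that these medians follow in part from the filter. With Col1a1, Col1a2, Col3a1, Col5a1 and Col5a2 alone the fibrillar median was 0.41, 0.77, 0.31, -0.29 and -0.76 in untreated colitis, probiotic colitis, probiotic against untreated, cyclosporine against untreated and cyclosporine against probiotic colitis, and 0.26 for the interaction. With type IV chains alone the basement membrane median was -0.052 in probiotic colitis, -0.049 for cyclosporine against probiotic colitis and 0.0405 for the interaction. Averaged probe sets gave a fibrillar median of 0.0215 for probiotic against untreated colitis.

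With 1 array left out, the members that fell in untreated colitis ranged from 0 to 2, those higher and lower in cyclosporine colitis than in untreated healthy mice from 0 to 1 and from 0 to 2, those higher in probiotic than in untreated colitis from 0 to 12, and those higher in cyclosporine than in probiotic colitis from 0 to 1. The basement membrane median in that last comparison ranged from -0.21 to -0.10.

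Groups share some mouse numbers. The 20 pairs of mice with the same number in different groups correlated at -0.49 to 0.51 over 203 genes (median 0.06, with 8 over 0.1). The other 140 pairs had a median of -0.01. Because the correlations ran in both directions, they cannot decide whether the numbers pair the mice. With the number as a replicate block 47 of the 59 calls were kept, 2 members fell in untreated colitis and 0 were higher in cyclosporine colitis than in untreated healthy mice. Precision is limited by 4 arrays per group, and 21 members were dim in every group.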
